A study of Mus musculus with 9 samples.

Results

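The genes described here are 9 that mark the macrophages resident around the vessels of adipose tissue (AT): Cd163, Mrc1, Cd209f, Lyve1, Stab1, Timd4, Folr2, Vsig4 and F13a1. They were taken by symbol from the 32285 genes of the count matrices, and all 9 were present in all 9 libraries. Their levels were followed in single-nucleus RNA sequencing of mouse epididymal AT (epiAT), in which nuclei rather than whole cells are isolated and each transcript is counted once through a unique molecular identifier (UMI). Each library held nuclei pooled from 5 male C57BL/6J mice of 1 diet group, so every group was measured once and the spread between mice within a group was not measured.

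Of the 9 groups, C, CC and CCC were fed chow throughout and were 18, 26 and 39 weeks old (by the methods of the study, chow was a low-fat control diet up to the time of the diet switch, after which CC and CCC, like the WL groups, received a standard chow). H and HH received high-fat diet (HFD) for 12 and 25 weeks and were 18 and 31 weeks old. HC and HHC lost weight (WL): they received HFD for 12 or 25 weeks and then chow for 8 weeks, and were 26 and 39 weeks old. CCH and HCH were both 30 weeks old and received HFD for the last 4 weeks, CCH after chow only and HCH after an earlier 12 weeks of HFD that were followed by 8 of chow. The libraries came from 2 sequencing sets, 1 with C, H, HH, CCH and HCH and the other with CC, CCC, HC and HHC, so HFD and WL libraries cannot be told apart from their set, whereas chow libraries were in both.

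Resident macrophages of AT lie along vessels and between adipocytes, where they take up debris, free haemoglobin, hyaluronan and dying cells from the interstitial fluid. The receptors for this uptake are the genes by which the cells are usually recognised, and in obesity another population, the lipid-associated macrophages (LAMs), forms around dying adipocytes and expresses lysosomal and lipid-handling genes instead. Cd163 encodes the scavenger receptor for haptoglobin-haemoglobin complexes, Mrc1 the mannose receptor, and Cd209f a C-type lectin of the DC-SIGN family. Lyve1 encodes a hyaluronan receptor and Stab1 a scavenger receptor for modified lipoproteins and phosphatidylserine, and both are also expressed in lymphatic endothelium. Timd4 encodes a phosphatidylserine receptor through which apoptotic cells are engulfed, Folr2 the beta folate receptor, and Vsig4 a complement receptor of the immunoglobulin family. F13a1 is the exception among the 9, since it encodes the transglutaminase subunit of coagulation factor XIII and no receptor. The position of a nucleus relative to vessels was not measured.

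The 9 genes lie at 9 separate loci of the GRCm38 genome on 8 chromosomes (GENCODE vM21 annotation, all protein coding). Cd163 spans chr6:124304656-124330527, Mrc1 chr2:14229392-14332057 and Timd4 chr11:46810800-46844332, all on the plus strand. On the minus strand are Cd209f (chr8:4102787-4105835), Folr2 (chr7:101839988-101857194), Lyve1 (chr7:110850607-110863239), F13a1 (chr13:36867178-37050244), Stab1 (chr14:31139013-31168641) and Vsig4 (chrX:96247203-96293438). Intronic reads were counted, and the annotated spans reach from 3.05 kb for Cd209f to 183 kb for F13a1, so levels were compared between libraries and not between genes. Mrc1 holds the microRNA gene Mir511 on its own strand, and F13a1, Folr2 and Stab1 overlap genes on the opposite strand (Gm49144 and Gm30489, Gm10602 and Gm45319, and Nt5dc2).

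Upstream sequences were available for 8 of the 9 members, in 10 windows of the 250 bases before a transcription start (RefSeq, GRCm38.p6). The windows of 4 members that hold one of the motifs searched are shown. Of these genes, Timd4, F13a1 and Mrc1 fell in macrophage-gated nuclei under HFD and Vsig4 gave no call. Stab1, which also has a PU.1 core and gave no call, is not shown, nor is another F13a1 window without a match. A link between motif and diet response was not tested. Each is written 5′ to 3′ on the strand of its gene, and capitals mark the core of the binding motif of the myeloid factor PU.1 (GAGGAA, or TTCCTC on the other strand) or, in Timd4, a half-site of MAF factors (TGCTGAC, or GTCAGCA).
Timd4, chr11:46810549-46810798, plus strand: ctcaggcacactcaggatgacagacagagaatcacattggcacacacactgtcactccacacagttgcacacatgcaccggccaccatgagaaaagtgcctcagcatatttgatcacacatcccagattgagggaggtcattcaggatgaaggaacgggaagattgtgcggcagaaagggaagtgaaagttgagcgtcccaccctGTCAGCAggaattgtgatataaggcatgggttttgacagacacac
F13a1, chr13:37050245-37050494, minus strand: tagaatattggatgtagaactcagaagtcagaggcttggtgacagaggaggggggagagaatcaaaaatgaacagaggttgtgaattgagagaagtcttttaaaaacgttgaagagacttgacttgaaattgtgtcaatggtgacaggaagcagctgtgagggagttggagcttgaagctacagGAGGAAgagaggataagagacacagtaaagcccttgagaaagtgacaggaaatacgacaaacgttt
Mrc1, chr2:14229164-14229413, plus strand: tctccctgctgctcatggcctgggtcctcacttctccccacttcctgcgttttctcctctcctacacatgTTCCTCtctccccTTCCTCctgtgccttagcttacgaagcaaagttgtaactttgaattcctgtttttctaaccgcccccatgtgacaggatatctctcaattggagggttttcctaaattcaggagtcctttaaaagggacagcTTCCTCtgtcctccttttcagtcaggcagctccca
Vsig4, chrX:96293439-96293688, minus strand: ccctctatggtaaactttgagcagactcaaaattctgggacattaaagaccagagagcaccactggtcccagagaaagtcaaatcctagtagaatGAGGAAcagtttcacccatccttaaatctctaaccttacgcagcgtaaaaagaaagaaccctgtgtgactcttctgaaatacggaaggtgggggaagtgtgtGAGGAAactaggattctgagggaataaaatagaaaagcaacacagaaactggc
The PU.1 core was present in 4 of the 10 member windows (Mrc1, F13a1, Stab1 and Vsig4), with 3 matches in Mrc1, and in 23.3% of 32851 RefSeq windows of the same length. The MAF half-site was present in 1 of the 10 member windows, that of Timd4, and in 3.81% of all windows. These are matches of letters, not measured binding sites.

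The 9 libraries held 91687 barcodes and 408905640 UMIs, 22599619 to 66615262 per library, and 73199 nuclei were kept (4009 to 12581 per library). Nuclei were assigned to 13 classes by 8 markers each, none of which is a member, and a nucleus was macrophage-gated when it held at least 3 of Adgre1, Csf1r, Mertk, Cybb, Tbxas1, Mpeg1, Lyz2 and Ctss and at least 2 more markers than of any other class. Adipocyte-gated nuclei were found in every library, 177 to 2627. Library CC stood apart: the gate left 18 macrophage-gated nuclei there, 0.449% of its kept nuclei, against 182 to 4944 in the other libraries and up to 50.4% in H. A second gate, chosen after seeing this, allowed for free RNA shared by all nuclei of a library, and gave 265 macrophage-gated nuclei in CC and 297 to 4538 elsewhere. Values under it are given below for the main results that rest on CC. Its macrophage-gated nuclei in CC held more UMIs of the adipocyte markers than of the macrophage markers, so they are not a clean measure of macrophages either. Between 24.7% (H) and 83.3% (CC) of the macrophage-gated nuclei lay at the edge of the gate, with exactly 3 markers or a lead of exactly 2. Any pair of libraries shared 8 to 55 cell barcodes, at most 0.493% of the smaller library.

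At the median library, macrophage-gated nuclei held 45.7% (Folr2) to 63.5% (F13a1) of a member's UMIs, and 53.6% (Folr2) to 81.0% (Vsig4) under the gate allowing for free RNA. The share depended on the library and, most under chow, in HC and in CCH, on the gate. Of all UMIs of the 9 members, macrophage-gated nuclei held 39.8%, 5.24% and 29.1% in C, CC and CCC, 46.2% in HC and 61.2% to 85.8% in the other 5 libraries. Under the gate allowing for free RNA they held 57.9%, 49.8% and 46.0% in C, CC and CCC, 62.5% in HC and 76.9% to 82.7% in the others. CCH moved from 61.2% to 79.8% between the gates. In CC adipocyte-gated nuclei held 50.9% of them under the fixed gate and 6.33% under the other, so the class that held most of the members' UMIs in CC depended on the gate. With all libraries pooled, the share of Lyve1 UMIs in lymphatic endothelial-gated nuclei was 5.78%, although these nuclei held 0.75% of all UMIs (9.47% and 1.30% under the second gate). In the 8 libraries with 24 or more such nuclei, Lyve1 was at 23.2 to 241 CPM (UMIs of the gene per 1000000 UMIs of the class), Stab1 at 201 to 617 CPM and Mrc1 at 205 to 391 CPM. F13a1 was at 14.1 to 232 CPM there, and the Lyve1 values of CCC, HC and HHC rest on 4 or 5 UMIs. UMIs of these genes were thus not confined to macrophage-gated nuclei, and the part of free RNA in these levels was not tested.

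**Figure D1:**
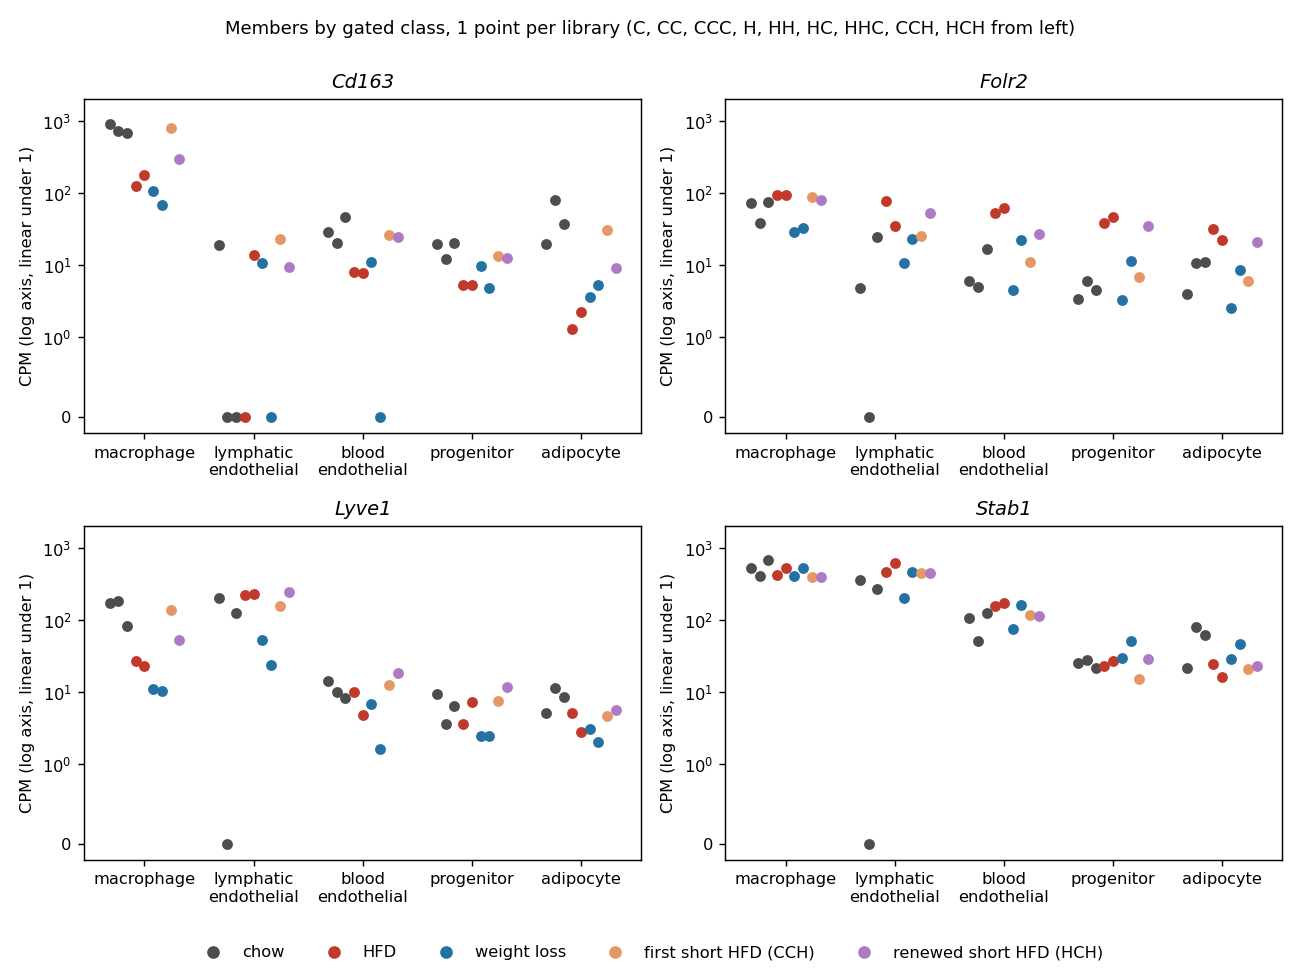
Levels of Cd163, Folr2, Lyve1 and Stab1 (CPM, log axis that is linear under 1) by nucleus class, 1 point per library coloured by diet state, in macrophage-gated, lymphatic endothelial-gated, blood endothelial-gated, progenitor-gated and adipocyte-gated nuclei. Lyve1 and Stab1 in lymphatic endothelial-gated nuclei reach the range of macrophages, and Folr2 in progenitor-gated nuclei separates into H, HH and HCH at 34.5 to 45.8 CPM and the other 6 libraries at 3.27 to 11.3 CPM.

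Folr2 had the highest progenitor level relative to macrophages in H and HH. In progenitor-gated nuclei (stromal progenitors marked by Pdgfra, Dcn and Col3a1) it was at 3.32, 5.99 and 4.53 CPM in the chow libraries C, CC and CCC, 38.6 and 45.8 under HFD (H, HH), 3.27 and 11.3 after WL (HC, HHC), 6.90 in CCH and 34.5 in HCH. The 3 libraries H, HH and HCH lay above all others, and CCH, whose mice were on HFD for the last 4 weeks only, did not. The progenitor level was 40.8% of the macrophage level in H and 48.4% in HH. The other 8 members ranged from 1.44% (F13a1) to 13.7% (Lyve1) in H and from 1.18% (F13a1) to 31.6% (Lyve1) in HH, with Timd4 at 12.1% and 17.9% and Cd209f at 11.2% and 20.04%. Other classes of H and HH had high Folr2 as well: adipocyte-gated nuclei were at 32.0 and 22.1 CPM, against 2.50 to 11.1 CPM in the chow and WL libraries, and blood endothelial-gated nuclei at 52.1 and 60.8 CPM, against 4.43 to 22.5 CPM. In these classes HCH was at 20.8 and 26.9 CPM and CCH at 5.96 and 11.1 CPM. The part of free RNA in these levels was not tested.

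The first comparison asked how the members stood in macrophages under HFD and after WL. In macrophage-gated nuclei 6 of the 9 members were lower under HFD than under chow and 7 were lower after WL, at an adjusted p below 0.05 (edgeR quasi-likelihood test on UMIs summed per library, Benjamini-Hochberg over all 11564 genes tested, 3 chow, 2 HFD and 2 WL libraries). Over all genes tested, 10.5% were called lower under HFD and 2.79% after WL. None of the 9 was called higher in either comparison at an adjusted or an unadjusted p below 0.05, where 18.3% and 6.02% of genes tested were, and DESeq2 called none higher. Both HFD libraries were below all 3 chow libraries in 6 members (18.2% of genes) and both WL libraries in 7 (12.8%), and with the gate allowing for free RNA, which takes in more nuclei of CC, the same counts were 6 (23.1%) and 7 (16.5%). The median log2 fold change of the 9 members was -1.62 under HFD and -2.53 after WL, against 0.16 and 0.12 over all genes tested. Because each group is 1 library, these p-values measure the spread between libraries of one diet state that also differ in age and duration.

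Among the scavenger and lectin receptors, Cd163 was at 902, 729.6 and 689 CPM in the chow libraries C, CC and CCC, 123 and 175 under HFD (H, HH), 106 and 68.6 after WL (HC, HHC), 797 in CCH and 293 in HCH. The CC value was 545 CPM under the gate allowing for free RNA. All 4 HFD and WL libraries were below the 3 chow libraries under both gates, and CCH was with the chow libraries. Cd163 fell under HFD (log2 fold change -2.41 ± 0.30 (SE), adjusted p = 3.4e-04) and after WL (log2 fold change -3.10 ± 0.31 (SE), adjusted p = 2.5e-04). The mannose receptor Mrc1 had smaller fold changes. It was at 2829, 2534 and 2492 CPM in the chow libraries C, CC and CCC (CC at 2148 CPM under the gate allowing for free RNA), 1229 and 1149.9 under HFD (H, HH), 969 and 1177 after WL (HC, HHC), 2480.3 in CCH and 1755 in HCH. Its chow libraries were again above all HFD and WL libraries, and Mrc1 fell in both (HFD, log2 fold change -1.15 ± 0.22 (SE), adjusted p = 0.00308, and WL, log2 fold change -1.22 ± 0.22 (SE), adjusted p = 0.00514), the latter not past the threshold with a stricter gate (adjusted p = 0.068).

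Cd209f, the lectin, was at 105, 154 and 177 CPM in the chow libraries C, CC and CCC, 45.1 and 46.9 under HFD (H, HH), 14.95 and 17.7 after WL (HC, HHC), 119.9 in CCH and 70.2 in HCH. The CC value was 95.4 CPM under the gate allowing for free RNA. The 3 states did not overlap under either gate, with WL the lowest (HFD, log2 fold change -1.62 ± 0.26 (SE), adjusted p = 0.00136, and WL, log2 fold change -3.03 ± 0.29 (SE), adjusted p = 2.2e-04). Whether the WL and HFD levels differ was not tested, since all HFD libraries are of one sequencing set and all WL libraries of the other.

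Lyve1, the hyaluronan receptor, was at 168, 179 and 80.7 CPM in the chow libraries C, CC and CCC, 26.3 and 22.6 under HFD (H, HH), 10.99 and 10.1 after WL (HC, HHC), 136 in CCH and 52.97 in HCH. The CC value rests on 14 UMIs and was 63.6 CPM under the gate allowing for free RNA, and the chow libraries were above the HFD and WL libraries under both gates. Lyve1 fell under HFD (log2 fold change -2.52 ± 0.34 (SE), adjusted p = 5.2e-04) and after WL (log2 fold change -3.68 ± 0.37 (SE), adjusted p = 2.5e-04). Stab1, the stabilin scavenger receptor, was at 529, 409.6 and 678 CPM in the chow libraries C, CC and CCC, 417 and 515 under HFD (H, HH), 399 and 514 after WL (HC, HHC), 389.8 in CCH and 397 in HCH. Its diet states overlapped and it was called in neither comparison (HFD, log2 fold change -0.27 ± 0.24 (SE), adjusted p = 0.45, and WL, log2 fold change -0.22 ± 0.24 (SE), adjusted p = 0.671).

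Timd4, the receptor for apoptotic cells, showed the largest log2 fold change of the 9 members under HFD. It was at 155, 269 and 105 CPM in the chow libraries C, CC and CCC, 8.98 and 9.16 under HFD (H, HH), 22.9 and 11.3 after WL (HC, HHC), 76.4 in CCH and 24.6 in HCH. The CC value was 154 CPM under the gate allowing for free RNA. Every HFD and WL library was below every chow library under both gates, and CCH lay below the chow libraries as well. Timd4 fell under HFD (log2 fold change -4.12 ± 0.42 (SE), adjusted p = 1.7e-04) and after WL (log2 fold change -3.20 ± 0.42 (SE), adjusted p = 8.5e-04). In H and HH 1.41% and 1.48% of macrophage-gated nuclei had a Timd4 UMI, against 12.6% to 44.4% of those in the chow libraries. After thinning each nucleus to 1000 UMIs, to remove differences in depth, the shares were 0.813% and 0.771% against 7.65% to 17.6%. The upper end of both chow ranges is CC, with 18 nuclei before thinning, and under the gate allowing for free RNA the chow shares were 11.8% to 25.7% and, thinned, 6.97% to 11.7%.

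Folr2 was at 71.4, 38.4 and 74.1 CPM in the chow libraries C, CC and CCC, 94.7 and 94.6 under HFD (H, HH), 28.6 and 32.4 after WL (HC, HHC), 89.04 in CCH and 79.7 in HCH. The HFD libraries were above the chow libraries and the WL libraries below them, but the CC value rests on 3 UMIs (95% Poisson interval 7.92 to 112 CPM, counting error only). The HFD difference was not past the threshold (log2 fold change 0.43 ± 0.25 (SE), adjusted p = 0.224). The WL difference was (log2 fold change -1.12 ± 0.26 (SE), adjusted p = 0.0215), and it was lost with the sequencing set as a term (adjusted p = 0.147), in the pairs of the same age with age as a term (adjusted p = 0.293), and without C, CCC, H, HH or HHC in turn (adjusted p 0.051 to 0.147).

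Vsig4, the complement receptor, was at 44.1, 76.8 and 91.6 CPM in the chow libraries C, CC and CCC, 53.8 and 98.6 under HFD (H, HH), 34.3 and 82.4 after WL (HC, HHC), 45.3 in CCH and 70.1 in HCH. The diet states overlapped, and within each state the older library was the higher (CCC over CC over C, HH over H and HHC over HC), an order that was noted after the values were seen and not tested. The older HFD and WL libraries also had the longer HFD, and C was of another sequencing set than CC and CCC, so age cannot be told apart from these. CCH and HCH, of the same age, were at 45.3 and 70.1 CPM. The CC value rests on 6 UMIs (95% Poisson interval 28.2 to 167 CPM) and was 48.2 CPM under the gate allowing for free RNA. Neither contrast was called (HFD, log2 fold change 0.21 ± 0.43 (SE), adjusted p = 0.758, and WL, log2 fold change -0.08 ± 0.43 (SE), adjusted p = 0.961).

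F13a1, the transglutaminase, was at 6522, 6477 and 5139 CPM in the chow libraries C, CC and CCC, 853 and 861 under HFD (H, HH), 1044 and 935 after WL (HC, HHC), 6071 in CCH and 2909.7 in HCH. The CC value was 4710 CPM under the gate allowing for free RNA. Under the fixed gate the chow libraries and CCH lay between 5139 and 6522 CPM and the HFD and WL libraries between 853 and 1044 CPM. It had the smallest adjusted p of the 9 members under HFD (log2 fold change -2.82 ± 0.25 (SE), adjusted p = 9.0e-05) and also fell after WL (log2 fold change -2.53 ± 0.25 (SE), adjusted p = 2.4e-04). With the gate allowing for free RNA the calls stayed at 6 members under HFD and 7 after WL. Of 11663 genes tested there, 2001 were lower under HFD and 397 after WL. With the sequencing set as a term the member calls were 6 and 6, all but Folr2, and the share of all genes called in that fit is not given here.

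**Figure D2:**
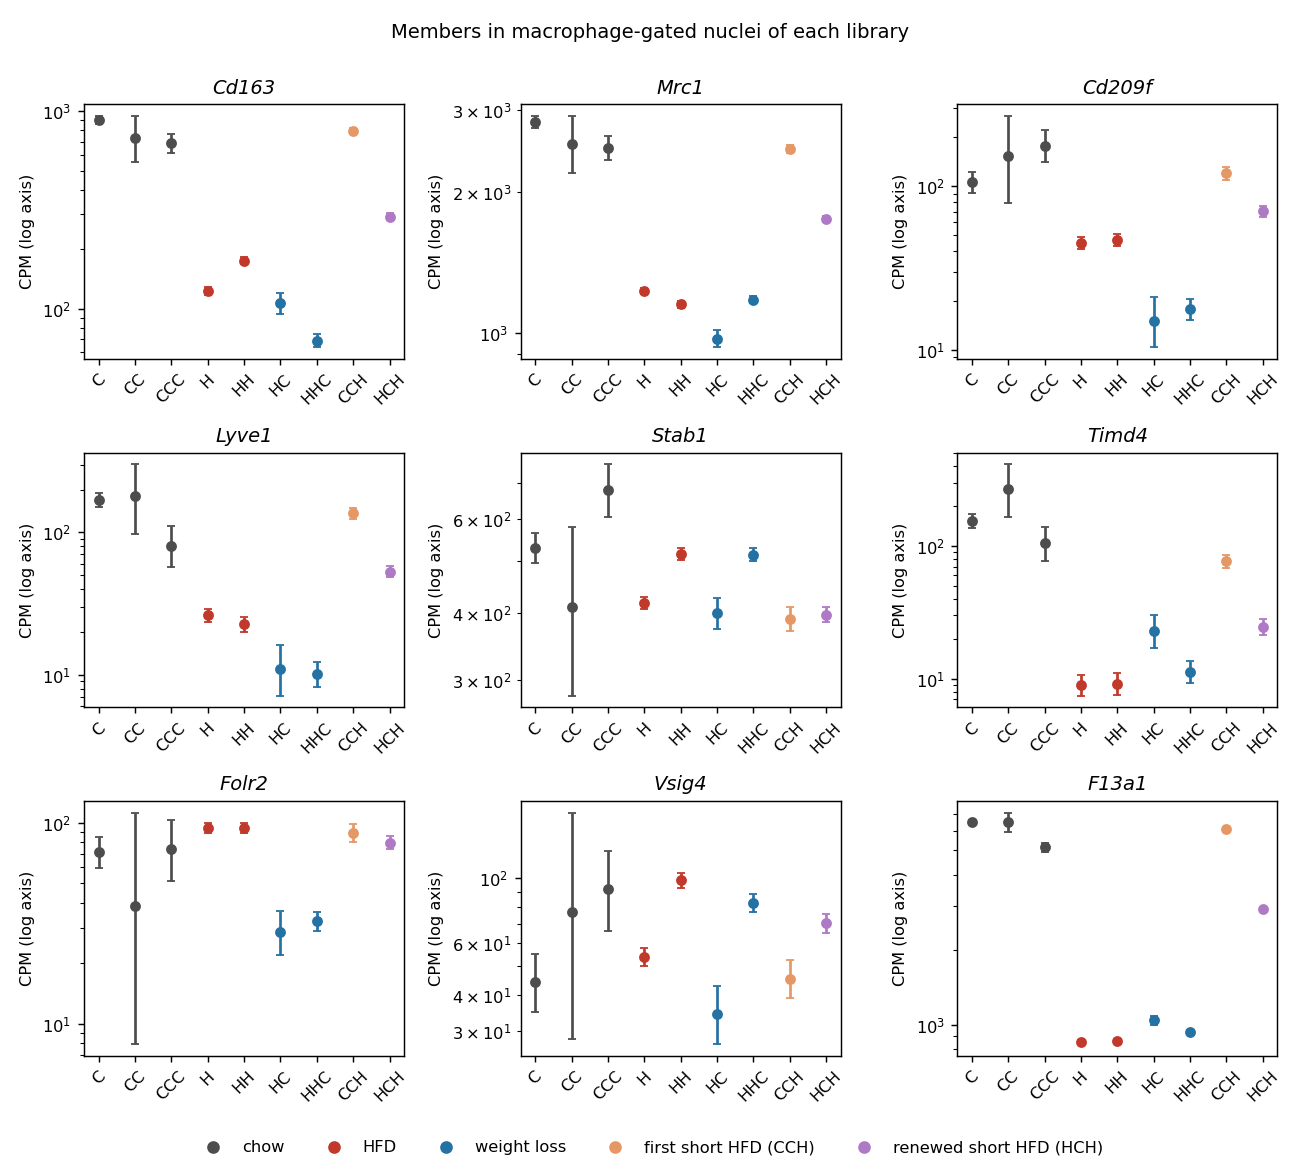
Level of the 9 members in macrophage-gated nuclei (CPM, log axis), 1 panel per gene and 1 point per library with its 95% Poisson interval for counting error, libraries ordered by diet state. Cd163, Lyve1, F13a1, Mrc1, Timd4 and Cd209f are lower in H, HH, HC and HHC than in C, CC and CCC, HCH lies between, and Stab1 and Vsig4 overlap.

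The WL groups had been back on chow for 8 weeks, and libraries of the same age and sequencing set were compared directly. All 9 members summed were at 2631 CPM in HC and 10868 CPM in CC, both at 26 weeks and most of it F13a1 and Mrc1 (6477 and 2534 CPM in CC), a log2 ratio of -2.05 [-2.15 to -1.94] (95% interval, counting error only, as for all ratios of 2 libraries). At 39 weeks they were at 2848 CPM in HHC and 9526 CPM in CCC, a log2 ratio of -1.74 [-1.79 to -1.70]. F13a1 alone was at -2.63 [-2.77 to -2.49] and -2.46 [-2.52 to -2.39] in these pairs, and Stab1 at -0.04 [-0.54 to 0.52], and -0.40 [-0.57 to -0.23]. The first F13a1 ratio rests on CC as well: under the gate allowing for free RNA F13a1 was at 979 CPM in HC and 4710 CPM in CC, a smaller difference. The first Stab1 interval includes 0 and rests on 32 UMIs in CC, and under the gate allowing for free RNA the ratio was -0.36 [-0.52 to -0.20], below 0. During HFD, H stood at -1.99 [-2.01 to -1.96] relative to C of the same age and set, with 6 of the 9 members lower by 2-fold or more (10.2% of genes). In HHC against CCC, 7 of the 9 members were lower by 2-fold or more, all but Stab1 and Vsig4, where 6.42% of genes were. Cd163 was -3.33 [-3.52 to -3.13] and Cd209f -3.32 [-3.71 to -2.92] in that pair, the lowest 2 ratios.

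By design the groups CCH and HCH differed in their earlier history, since both received HFD for 4 weeks and were taken at 30 weeks within 1 sequencing set. Each was 1 library of its own pool of 5 mice, so history cannot be told apart from differences between pools. Summed members were at 10205 CPM in CCH and 5651 CPM in HCH (log2 ratio -0.85 [-0.87 to -0.83]). Lower in HCH were Timd4 (-1.63 [-1.89 to -1.38]), Cd163 (-1.44 [-1.52 to -1.37]), Lyve1 (-1.36 [-1.54 to -1.19]) and F13a1 (-1.06 [-1.09 to -1.04]), all by more than 2-fold, where 2.78% of genes were. Cd209f (-0.77 [-0.95 to -0.60]) and Mrc1 (-0.50 [-0.54 to -0.46]) were lower by less. Vsig4 was higher in HCH (0.63 [0.39 to 0.88]), and the intervals of Folr2 and Stab1 included 0. Against C, the chow library of its own set, CCH was lower by little (-0.15 [-0.17 to -0.13]), and 1 of the 9 members, Timd4, was lower by 2-fold or more (-1.02 [-1.26 to -0.78]), where 3.71% of genes were. C was 18 weeks old and CCH 30 weeks, so age and the 4 weeks of HFD cannot be told apart in this pair.

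Across all nuclei of a library the set of called members was another. It shared Timd4 and F13a1 under HFD and Cd163, Timd4, Cd209f and Lyve1 after WL with the macrophage-gated nuclei. Macrophage-gated nuclei were 39.3% to 50.4% of kept nuclei under HFD and 0.449% to 5.43% under chow (fixed gate). After WL they were 652 of 5188 in HC and 2913 of 8623 in HHC. The gate allowing for free RNA took more nuclei of CC. Ungated nuclei held 42.1% to 49.4% of member UMIs under chow and 11.2% and 15.4% in H and HH. The macrophage markers summed to 3367 to 4199 CPM in macrophage-gated nuclei under chow and to 5095 and 5995 CPM in H and HH. In sums over all nuclei fewer cells of a type and less RNA per cell cannot be told apart. Under HFD 3 members were called higher (18.0% of 12941 genes tested were) and 2 lower (18.3%). Folr2 was higher, at 75.2 CPM in H and 69.4 CPM in HH against 12.4 to 17.2 CPM under chow (log2 fold change 2.03 ± 0.28 (SE), adjusted p = 0.00659). Vsig4 was at 31.3 and 50.3 CPM against 5.06 to 10.4 CPM (log2 fold change 2.22 ± 0.57 (SE), adjusted p = 0.0257), and Stab1 at 264 and 278 CPM against 87.0 to 114 CPM (log2 fold change 1.20 ± 0.27 (SE), adjusted p = 0.0186). Timd4 was lower, at 5.81 and 6.48 CPM against 14.1 to 23.4 CPM (log2 fold change -1.93 ± 0.33 (SE), adjusted p = 0.00966), and so was F13a1, at 503 and 428 CPM against 630.3 to 898 CPM (log2 fold change -0.88 ± 0.26 (SE), adjusted p = 0.0372). With the sequencing set as a term none of the 3 higher calls remained (adjusted p 0.052 to 0.104), whereas Timd4 and F13a1 stayed below the threshold (adjusted p 0.044 and 0.048). Both lower calls were lost without H or without HH, and of the 3 higher calls none was left without H and 1 without CC or without HH.

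After WL 4 members were lower across all nuclei, where 2.87% of genes were. Cd163 was at 26.4 CPM in HC and 31.9 CPM in HHC against 78.0 to 130.1 CPM under chow (log2 fold change -1.81 ± 0.29 (SE), adjusted p = 0.017). Timd4 (log2 fold change -1.80 ± 0.33 (SE), adjusted p = 0.0242), Cd209f (log2 fold change -1.65 ± 0.32 (SE), adjusted p = 0.0286) and Lyve1 (log2 fold change -1.68 ± 0.39 (SE), adjusted p = 0.0476) were the others, and in each both WL libraries were below the 3 chow libraries, as in 19.4% of genes. None was called higher by edgeR, where 4.71% of genes were. At an unadjusted p below 0.05 Stab1 and Vsig4 were higher, and DESeq2 called 1, Stab1 (adjusted p = 0.029). The 4 lower calls rested on all libraries: without CC none was past the threshold, without HC 3 were, and without any other library at most 2. With the sequencing set as a term 2 of the 4 were called, Cd163 and Lyve1 (adjusted p = 0.031 and 0.035), and in the pairs of the same age with age as a term 2, Cd163 and Cd209f (adjusted p = 0.041 and 0.043).

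**Figure D3:**
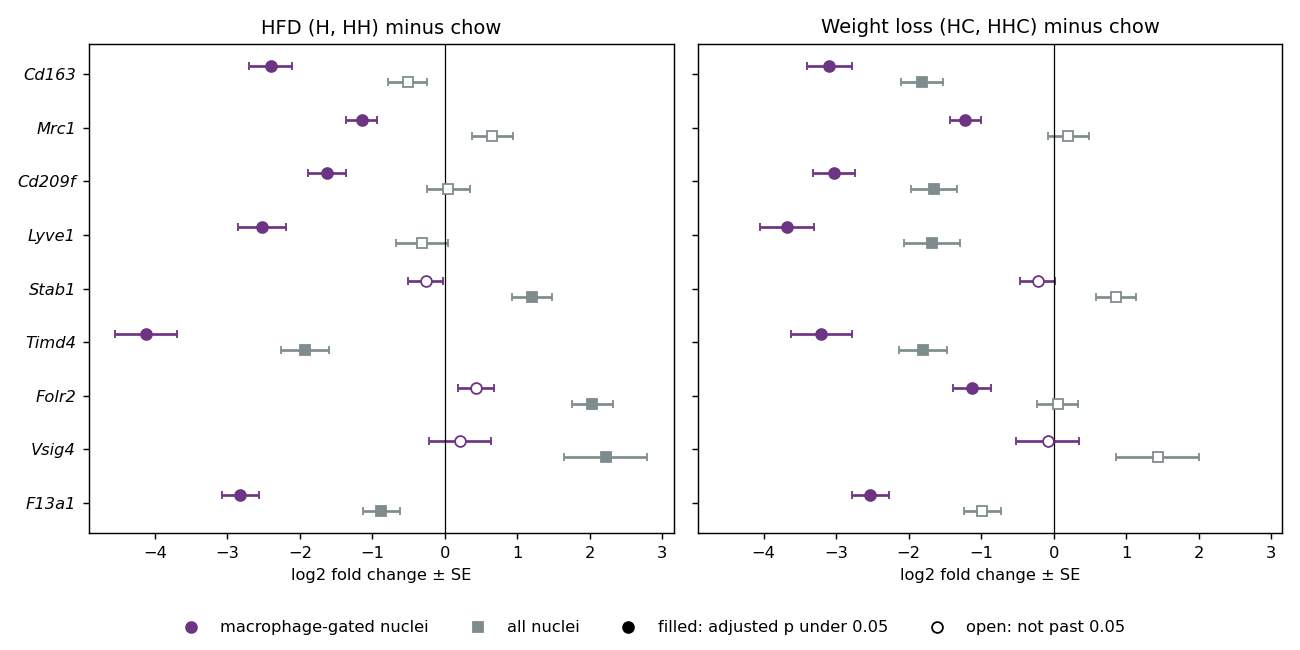
Log2 fold change of each member with its standard error, HFD against chow and WL against chow, in macrophage-gated nuclei and in all nuclei (edgeR, 7 libraries), with filled points for an adjusted p below 0.05. In macrophage-gated nuclei 6 and 7 members are filled and below 0, and in all nuclei Folr2, Stab1 and Vsig4 are above 0 under HFD.

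The share of nuclei with several members was then counted. Such a share can be low with less of each member in every macrophage or with fewer macrophages that carry them, and these cannot be told apart. A nucleus was called receptor-carrying when at least 2 of the 9 members had a UMI after thinning to 1000 UMIs. Of macrophage-gated nuclei, 86.9%, 76.5% and 82.4% in the chow libraries C, CC and CCC, 32.9% and 39.5% under HFD (H, HH), 35% and 36.6% after WL (HC, HHC), 79.2% in CCH and 49.8% in HCH were receptor-carrying. The CC value is 13 of 17 nuclei (95% Clopper-Pearson interval 50.1% to 93.2%), and under the gate allowing for free RNA it was 78.8% of 264 (73.4% to 83.6%). The lowest chow library was 37.0 percentage points above the highest HFD or WL library, CCH was with the chow libraries, and HCH lay between. Without thinning the shares were 85.7% to 93.4% under chow, 52.4% and 56.6% under HFD and 59.4% and 62.7% after WL. Other classes, thinned alike, passed the same rule as well: 0.951% to 4.29% of progenitor-gated nuclei, 0.25% to 15.5% of adipocyte-gated nuclei (15.5% in CC and 14.0% in CCC, but 3.23% and 9.55% under the gate allowing for free RNA), 2.81% to 9.03% of blood endothelial-gated nuclei, up to 23.8% of lymphatic endothelial-gated nuclei and 12.7% to 32.0% of nuclei that no gate took.

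As a share of all kept nuclei with 1000 UMIs or more (62 in CC to 1774 in C had fewer), receptor-carrying macrophage-gated nuclei were 5.41%, 0.329% and 3.29% in the chow libraries C, CC and CCC, 17% and 16.5% under HFD (H, HH), 4.45% and 12.9% after WL (HC, HHC), 12.4% in CCH and 15.1% in HCH. Under the gate allowing for free RNA C, CC and CCC were at 7.96%, 5.27% and 5.44%, and H and HH were at 15.7% and 15.4%. Receptor-carrying macrophage-gated nuclei were a larger share in the HFD libraries than in the chow libraries under both gates, by 5.57-fold and 2.50-fold on the means, while other macrophage-gated nuclei were 0.101% to 0.812% of nuclei under chow, 34.7% in H and 25.3% in HH (fixed gate). The members most often found were not the same. Of thinned macrophage-gated nuclei in C, 90.0% had F13a1, 85.1% Mrc1, 43.0% Cd163 and 36.1% Stab1 (fixed gate). In H 49.0% had Mrc1, 28.4% Stab1, 18.6% F13a1 and 7.90% Cd163. In HC the receptor-carrying share was 4.45% (6.31% under the second gate), within the range of C, CC and CCC under each gate, and in HHC it was 12.9% (12.4%), above them. These values depend on the gate: nuclei of any class that passed the rule were 16.9%, 15.3% and 17.9% in C, CC and CCC, 19.97% and 20.7% in H and HH, 10.7% in HC, below all chow libraries, and 18.2% in HHC. Of all kept nuclei without thinning, the shares were 5.07%, 0.399% and 2.84% in C, CC and CCC and 26.4% and 22.2% in H and HH. No count per depot was made.

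**Figure D4:**
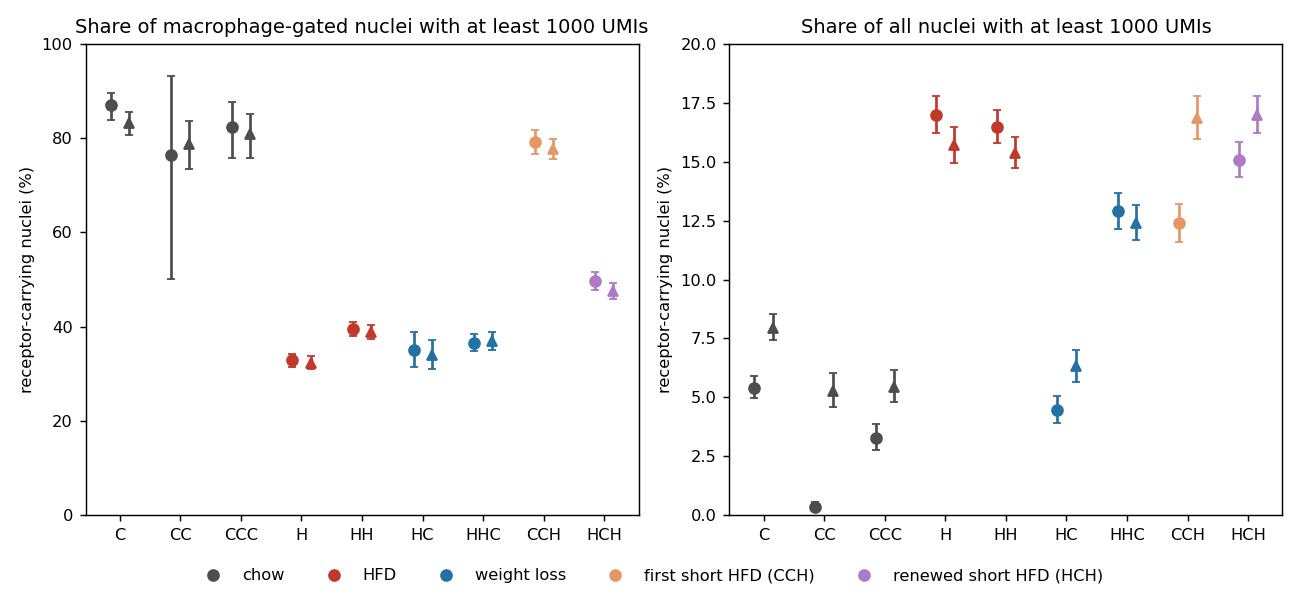
Receptor-carrying nuclei per library as a percent of macrophage-gated nuclei and as a percent of all nuclei with 1000 UMIs or more, with 95% Clopper-Pearson intervals (circles, fixed gate; triangles, gate allowing for free RNA). As a percent of macrophages C, CC, CCC and CCH are at 76.5% or more and H, HH, HC and HHC at 39.5% or less, whereas as a percent of all nuclei H and HH are above the 3 chow libraries.

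To see whether receptor-carrying macrophages themselves differed, each member was measured in macrophage-gated nuclei that carried at least 2 of the other 8 members, so that the gene did not choose its own nuclei. Receptor-carrying nuclei were a larger share of macrophage-gated nuclei under chow than under HFD or after WL, as given above. The rule thus selected unlike parts of the macrophages in these states. Its effect on the order of the libraries was not tested. The gate allowing for free RNA was used, since the fixed gate left 13 such nuclei in CC. In CC, however, the macrophage-gated nuclei of this gate held the adipocyte markers at 3346 CPM in sum and the macrophage markers at 2836 CPM. How far this affects the CC levels was not tested. Cd163 was at 1031, 635 and 765 CPM in the chow libraries C, CC and CCC, 359 and 375 under HFD (H, HH), 237 and 144 after WL (HC, HHC), 993 in CCH and 548 in HCH. F13a1 was at 7937, 5908 and 6672 CPM in the chow libraries C, CC and CCC, 2664 and 2109 under HFD (H, HH), 2461 and 2495 after WL (HC, HHC), 7784 in CCH and 6240.1 in HCH. Timd4 was at 175, 176 and 90.02 CPM in the chow libraries C, CC and CCC, 21.1 and 13.2 under HFD (H, HH), 37.7 and 21.9 after WL (HC, HHC), 83.6 in CCH and 39.3 in HCH. In all 3 genes both HFD and both WL libraries were below the 3 chow libraries, also among nuclei that carried other members.

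Under HFD Mrc1 and Cd209f did not stand apart from chow in these nuclei. Mrc1 was at 3471, 2544 and 3267 CPM in the chow libraries C, CC and CCC, 3065 and 2425 under HFD (H, HH), 2098 and 2675 after WL (HC, HHC), 3126 in CCH and 3236 in HCH, and Cd209f at 127, 112 and 203 CPM in the chow libraries C, CC and CCC, 139 and 118 under HFD (H, HH), 36.6 and 48.8 after WL (HC, HHC), 138 in CCH and 125 in HCH. In both genes the HFD libraries overlapped the chow libraries, and Cd209f in HC and HHC was below all of them. Lyve1 was at 56.7 and 77.65 CPM in HH and H, overlapping the chow range of 75.8 to 196 CPM, and at 20.4 and 22.7 CPM in HC and HHC.

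Folr2, Vsig4 and Stab1 were above all chow libraries in both HFD libraries, a share of members no larger than that of all genes. Vsig4 was at 39.9, 50.8 and 90.96 CPM in the chow libraries C, CC and CCC, 130.3 and 197 under HFD (H, HH), 70.3 and 159 after WL (HC, HHC), 49.5 in CCH and 127 in HCH. Folr2 was at 122 and 112 CPM in H and HH against 54.3 to 88.3 CPM under chow, and Stab1 at 863 and 977 CPM against 541 to 849 CPM. In the nuclei that carried other members, 3 of the 9 members were thus below all chow libraries in both HFD libraries and 3 above, where 20.1% and 36.9% of genes were. After WL 6 of the 9 were below all chow libraries in both HC and HHC, where 12.2% of genes were. With the fixed gate the HFD counts were 4, Lyve1 in addition, and 3 (15.3% and 33.5% of genes), and 7 after WL (9.61%).

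**Figure D5:**
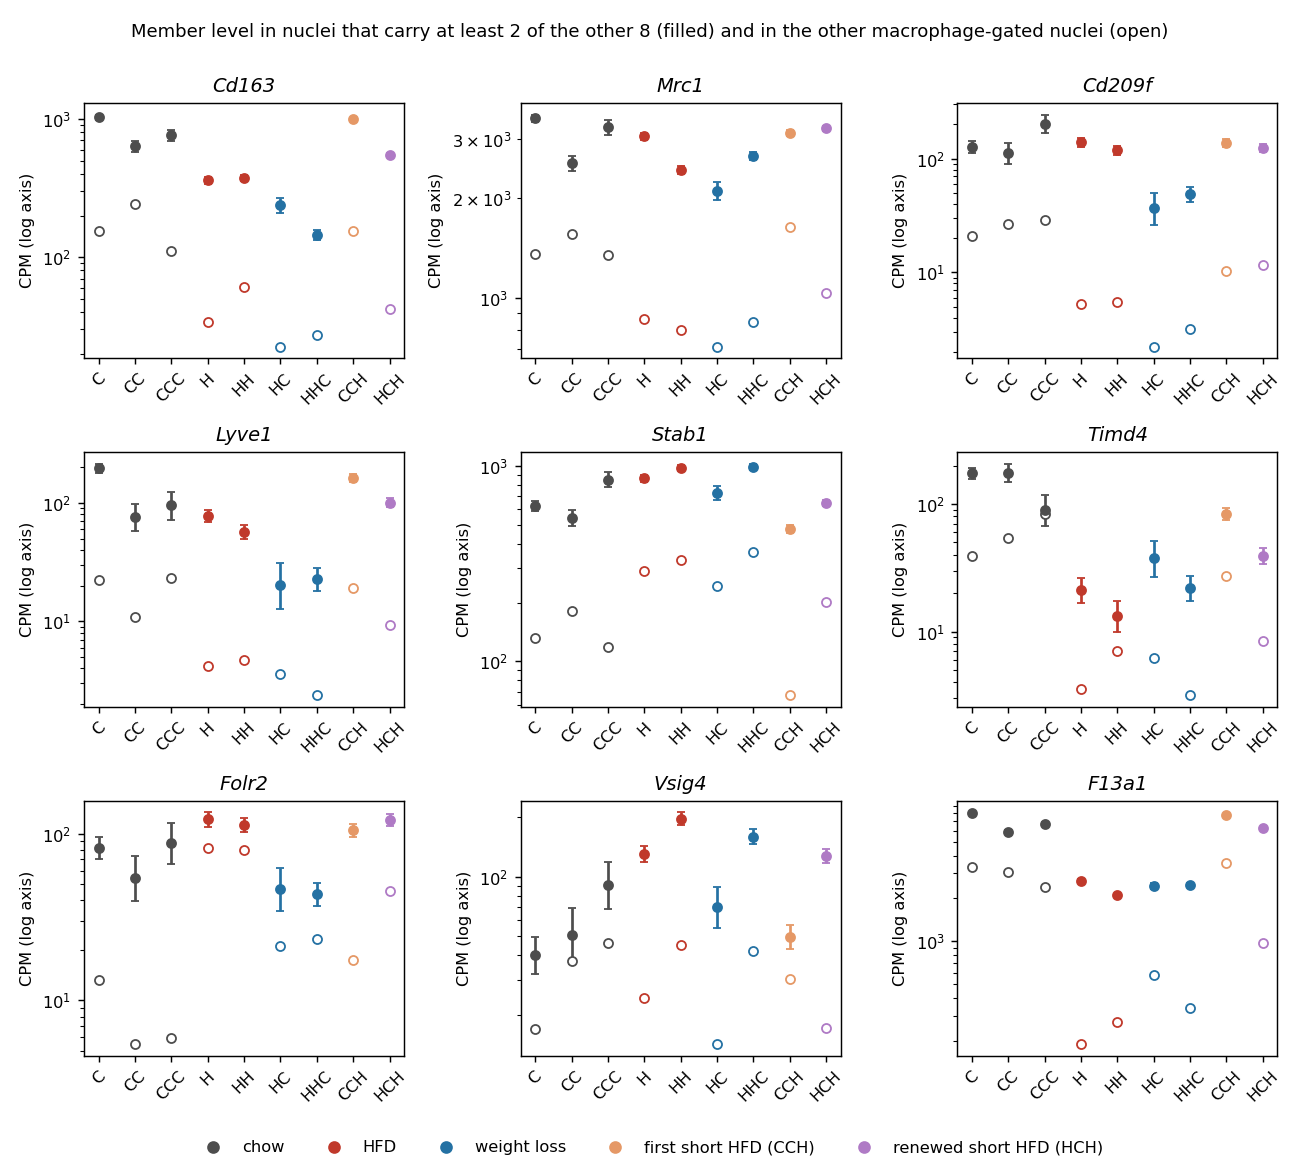
Level of each member (CPM, log axis) in macrophage-gated nuclei carrying at least 2 of the other 8 members (filled) and in the other macrophage-gated nuclei (open), 1 pair per library, gate allowing for free RNA. Cd163, F13a1 and Timd4 are lower in H, HH, HC and HHC than under chow also in the filled points, and Mrc1 is at 2098 to 3471 CPM in the filled points of all 9 libraries.

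Receptor-carrying nuclei differed from other macrophage-gated nuclei of the same library in many genes outside the 9. Of 7190 genes with a mean of at least 20 CPM, 152 (2.11%) were higher in receptor-carrying nuclei in all 9 libraries and at least 2-fold at the median library, and 102 (1.42%) were lower. Under the gate allowing for free RNA these were 201 (2.78%) and 167 (2.31%) of 7219. The genes named next are from the fixed gate, which left 17 thinned macrophage-gated nuclei in CC. Most of these were receptor-carrying, so the direction in CC rests on very few other nuclei. The nuclei were chosen by member UMIs, so these are descriptions of the nuclei and no tests, and the members themselves are left out. Highest by the median log2 ratio was Cd209g (5.26), a relative of Cd209f, followed by Gm43614 (4.09), Cd209b (4.06), Plekhg5 (3.80), the semaphorin gene Sema6a (3.47), the carbonyl reductase gene Cbr2 (3.43), Kctd16 (3.29), Tnfrsf25 (3.26), Cables1 (3.12) and the endothelin receptor gene Ednrb (3.07). Lowest were Xylt1 (-2.04), which starts proteoglycan chains, Ap1s3 (-1.98), the Src-family kinase gene Fgr (-1.98), Rnf128 (-1.95), Tnip3 (-1.89), the metalloproteinase gene Adam8 (-1.89), Zranb3 (-1.87), Igf2r (-1.79), Cadm1 (-1.79) and C77080 (-1.75).

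With the second gate 5 of the 10 highest genes were the same (Cd209g, Cd209b, Plekhg5, Tnfrsf25 and Cbr2). The others were Gm49144 (3.81), which lies opposite F13a1, Tlr5 (3.73), Ifitm10 (3.40), Cd209d (3.40) and Mctp2 (3.36), and none of the 10 lowest was shared (Gm46401, Gm6209, Efr3b, Npas2, Gm47507, Chst11, Gm2164, Dcstamp, F7 and Ksr2, -3.24 to -2.45). Of other genes of resident macrophages, 11 of 20 at that level were higher in receptor-carrying nuclei in all 9 libraries under this gate, among them the transcription factor genes Rbpj (2.21) and Maf (1.81) and the lectin gene Clec10a (2.54), and 1 was lower, the fatty-acid transporter gene Cd36 (-0.74). Over all genes at that level, 9.41% were higher in all 9 libraries and 11.2% lower, whatever the size. Of 12 LAM genes 9 were lower in all 9 libraries and none higher, with Gpnmb at -2.18, Itgax at -1.996, Mmp12 at -1.90 and Lgals3 at -1.62. None of 7 MHC class II genes had the same direction in all 9.

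The members' relatives and partners were read from lists of genes of the same families and pathways. Of 9 relatives tested in macrophage-gated nuclei (of 14 listed), 4 were lower under HFD and 2 higher, and all 4 that were lower were relatives of Cd209f: Cd209d (log2 fold change -2.88), Cd209c (-2.87), Cd209b (-2.72) and Cd209g (-1.40), adjusted p 0.00037 to 0.0019. The 2 that were higher were Havcr2 (3.01), of the family of Timd4, and Stab2 (2.74), the relative of Stab1. After WL the same 4 lectin genes were lower and the same 2 genes higher. The Cd209 genes are close copies in 1 cluster, and reads that fit more than one could have been lost or split in counting.

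Of 12 haem and iron genes tested, none was called lower under HFD and 7 were higher, among them the ferritin genes Ftl1 (3.72) and Fth1 (3.79), the haem transporter gene Slc48a1 (2.29), the iron transporter genes Slc11a2 (1.36) and Slc11a1 (1.35), and Lrp1 (1.11), receptor for haem bound to haemopexin, a route of uptake other than Cd163. After WL 5 of 12 were higher and none lower. Of 4 hyaluronan genes tested, Cd44 (1.85), the other main hyaluronan receptor, and Hyal1 (1.78), a hyaluronidase, were higher under HFD, and Cd44 (1.40) after WL. Of 12 genes of apoptotic cell uptake 6 were higher under HFD, such as the bridging protein gene Mfge8 (3.68), the integrin genes Itgav (1.85) and Itgb5 (1.92) and C1qb (1.85), and 3 were lower, Gulp1 (-3.47), Gas6 (-1.21) and Dock1 (-0.9998). After WL 3 were higher and 1 lower.

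Other resident macrophage genes moved both ways. Of 24 tested, 7 were lower under HFD, such as Rbpj (-1.84), Fgfr1 (-1.61), Cbr2 (-1.39) and Clec10a (-1.09), and 3 were higher, among them Cd36 (1.74) and Pf4 (1.69). After WL 10 were lower, such as Clec10a (-2.33), Cbr2 (-1.93), Fcna (-2.58) and Fgfr1 (-1.25), and 1 was higher, Cd36 (1.37). All 12 LAM genes were higher under HFD (Trem2, 4.20; Cd9, 3.51; Lgals3, 3.05) and 11 after WL. Of 7 MHC class II genes 1 was lower under HFD, Ciita (-1.19), and none was called after WL (edgeR). All of these are log2 fold changes against chow from the same fit, beside 10.5% lower and 18.3% higher over all genes tested under HFD and 2.79% and 6.02% after WL. With the gate allowing for free RNA the haem and iron genes higher after WL were 3 of 12.

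The summed level of the LAM list in macrophage-gated nuclei was 845 to 1563 CPM in the chow libraries, 1066 CPM in CCH, 6697 CPM in HCH, and 8839 to 13965 CPM in H, HH, HC and HHC. It was thus high in the libraries in which most members were low. Several lists of other cell types also differed between chow and HFD. The B cell list summed to 728 to 960.04 CPM under chow and 91.1 to 277 CPM under HFD and after WL, but 1 of its 8 genes, Bank1, made most of it (634 to 832 CPM under chow), whereas Cd79a, Cd79b, Ms4a1 and Pax5 were each at 2.18 CPM or less in C, CC and CCC. The dendritic cell list summed to 126 to 128 CPM under chow and 34.4 to 59.5 CPM under HFD and after WL, mostly Zbtb46, with Flt3, Xcr1 and Ccr7 at 0 in all 3 chow libraries. The adipocyte list was highest in CC, at 1843 CPM against 649.98 to 1222 CPM elsewhere (3346 CPM against 669 to 1399 CPM under the gate allowing for free RNA), and 6 of its 8 genes were called lower under HFD. The blood endothelial list summed to 111 to 269 CPM under chow and to 23.0 and 37.3 CPM in H and HH, with 7 of 8 genes called lower. The mast cell list summed to 10.9 to 18.4 CPM under chow and to 93.02 and 232 CPM in H and HH, with 4 of 6 genes tested called higher. The progenitor list summed to 279 to 409.6 CPM under chow, 694 and 1029 CPM in H and HH and 1464 CPM in HCH, with 3 of 8 genes called higher and 2 lower. Under the gate allowing for free RNA it was at 339, 690.03 and 545 CPM in C, CC and CCC and 642 and 951 CPM in H and HH, which overlap, with 2 genes called higher and 3 lower. The mural list summed to 74.2 to 102 CPM under chow and to 7.70 and 18.7 CPM in H and HH, with 2 of 5 genes tested called lower, and 6 of 6 under the gate allowing for free RNA. After WL it was at 216 CPM in HC and 71.4 CPM in HHC. The T and NK cell list was at 42.7 and 90.5 CPM in HC and HHC, against 0 to 41.4 CPM under chow. The monocyte list was at 52.3 and 73.3 CPM, against 89.6 to 179 CPM. The mesothelial list had 0 of 3 genes tested called lower, and 2 of 4 under the second gate. The part of these differences in the results was not tested.

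Across the 9 libraries the genes whose level in macrophage-gated nuclei was most like the mean standardised profile of the 9 members were C030034L19Rik (Pearson r = 0.988), Cbr2 (0.977), Cd33 (0.965), Ms4a8a (0.963), Dab2 (0.961), A4galt (0.960), Trim12a (0.956) and Rgs14 (0.954), of 7216 genes compared. With the second gate 3 of these 8 were again among the first 8, Cbr2, Rgs14 and Dab2. The members' own correlation with the profile, which contains them, ran from 0.97 for Cd209f and 0.95 for Mrc1 to 0.44 for Folr2, 0.38 for Stab1 and 0.26 for Vsig4. The 9 points share their diet states and sequencing sets, and these values are a description.

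Members were also found in the same nuclei. In thinned macrophage-gated nuclei, pooled over libraries, 89.1% of those with a Cd209f UMI had an F13a1 UMI, against 30.4% of those without (odds ratio 16.3, computed within libraries and then combined). For Lyve1 and F13a1 the pooled shares were 89.0% and 30.8% (15.2), and for Cd163 and F13a1 74.6% and 27.0% (6.35). Folr2 was the least tied to the others, with odds ratios of 1.16 (Timd4) to 1.89 (Lyve1) for its 8 pairs. Stab1 ranged from 1.34 (Timd4) to 3.24 (F13a1) and Vsig4 from 1.74 (Folr2) to 4.31 (F13a1), and the pair was at 2.57 with each other. A pair has the same odds ratio in either order, so every other member has its pair with Folr2 inside the range of Folr2. Nuclei of a library share its free RNA, and these values are given as a description with no test.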

How the data were processed

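Single-nucleus RNA-seq libraries (10x Genomics 3′ v3.1 chemistry) of mouse epiAT were analysed, 9 in all, 1 per diet group. The deposited matrices hold raw UMI counts per gene and barcode, made by the authors with Cell Ranger 6.1.2 against a 10x reference of mm10 (GRCm38), with introns counted and without normalization; Seurat 4.1.0 is also named in the submitters' notes. The authors' cell type annotation was not used here.

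The limits of the study's methods were applied (at least 500 and no more than 3000 genes, no more than 40000 UMIs), and doublets called by Scrublet (scanpy 1.11.5) were removed. Its automatic threshold marked under 0.5% in CC, CCC, HC and HHC, where the highest scores were removed instead, 0.8% per 1000 barcodes. Malat1 and the mitochondrial genes were dropped, so that 32271 of 32285 genes were used, and the study's removal of pseudogenes was not repeated. Nuclei were gated by 13 lists of 8 markers. The gate allowing for free RNA, added after seeing the data, compared Poisson likelihoods of marker UMIs under mixtures of each class profile with the library mean (free share 0.05 to 0.8) and required a 20-fold lead and at least 3 markers of the class.

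UMIs were summed per library and tested with the quasi-likelihood test of edgeR 4.0.16 (R 4.3.3) for diet state over 7 libraries, with TMM factors, genes with a mean of at least 5 CPM and Benjamini-Hochberg adjustment at 0.05. DESeq2 1.42.0, other scaling, other filters and gates, the sequencing set as a term, age-matched pairs with age as a term (chosen after seeing the data) and leaving out each library were tried as alternatives. The edgeR step was tested on simulated data. Ratios of 2 libraries, levels and shares have exact 95% intervals that cover counting error only. Depth was 22599619 to 66615262 UMIs per library.

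The 9 members are named in every comparison. Other genes were named as the 10 highest and 10 lowest by median log2 ratio between receptor-carrying and other nuclei with 1 direction in all 9 libraries, the 8 with the highest Pearson r to the members' mean profile (both from genes with at least 20 CPM), and up to 6 called genes per list by adjusted p. Beyond this rule, Dock1, Lrp1, Pf4, Clec10a under HFD and the list genes of the carrier comparison (such as Rbpj, Maf, Gpnmb and Itgax) were chosen after their values were seen. The members and lists were chosen with earlier results of these data known. A few listed genes are not reported here.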

Additional observations from a re-analysis of the deposited data

Results flagged for a closer look

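Folr2 stood out in nuclei outside the macrophage comparison. In progenitor-gated nuclei it was at 38.6 CPM in H, 45.8 CPM in HH and 34.5 CPM in HCH, against 3.32 to 5.99 CPM in the 3 chow libraries, which is why these libraries are listed here. CCH was at 6.90 CPM, HC at 3.27 CPM and HHC at 11.3 CPM. The contribution of free RNA from macrophages was not tested. In the same H and HH nuclei Cd163 was at 5.23 and 5.22 CPM against 12.0 to 19.8 CPM under chow. Cd163 was lower in macrophage-gated nuclei too, at 123 and 175 CPM against 689 to 902 CPM. F13a1, Mrc1 and Timd4 also lay below their chow ranges in these progenitor-gated nuclei. Lyve1 (3.61 and 7.16 CPM) overlapped its chow range of 3.59 to 9.42 CPM, and Stab1 (22.7 and 26.4 CPM) its range of 21.5 to 27.5 CPM. Cd209f and Vsig4 overlapped theirs as well. Folr2 was not high in progenitor-gated nuclei alone. Adipocyte-gated nuclei were at 32.0, 22.1 and 20.8 CPM in H, HH and HCH, against 3.95 to 11.1 CPM under chow. Blood endothelial-gated nuclei were at 52.1, 60.8 and 26.9 CPM, against 4.99 to 16.5 CPM.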

How the results depend on the processing

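In macrophage-gated nuclei the count of 6 members lower under HFD held under all alternatives, and that after WL, 7, was 6 to 8. Except for the gate allowing for free RNA, the shares of all genes called under these alternatives are not given here. By replicate number, no paired analysis was possible because each group has 1 library. Libraries were paired by age instead: in the pairs of 1 age and set (HC with CC, HHC with CCC), with age as a term, 6 members were lower after WL in macrophage-gated nuclei (7 with the gate allowing for free RNA) and 2 in all nuclei, a fit with 1 residual degree of freedom that was chosen after seeing the data. Leaving out each library in turn, the members lower were 6 under HFD and 6 to 7 after WL in macrophage-gated nuclei, and 0 to 2 and 0 to 3 in all nuclei; those higher in all nuclei were 0 to 4 under HFD and 0 to 2 after WL. With the sequencing set as a term, 0 members were higher under HFD and 2 lower after WL in all nuclei, and DESeq2 called 1 higher after WL.

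The log2 ratio of the summed members stayed below 0 throughout. For H over C it was -1.85 (stricter gate), -2.03 (looser gate), -1.95 (gate allowing for free RNA), -2.07 (no upper limit on genes) and -2.07 (TMM scaling), against -1.99. For HH over CC, which differ in age and sequencing set, it was -1.76 (looser), -1.51 (free RNA) and -1.72 (no limit), against -1.87. For HC over CC it was -2.21 (stricter), -1.75 (free RNA), -2.39 (no limit) and -1.83 (TMM), against -2.05. For HHC over CCC it was -1.65 (stricter), -1.64 (free RNA) and -1.98 (no limit), against -1.74. For HCH over CCH it was -0.90 (looser), -0.91 (free RNA), -0.97 (no limit) and -0.93 (TMM), against -0.85.

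The fold of the receptor-carrying share of all nuclei, HFD over chow, was 5.57 and moved to 9.62 (stricter gate), 3.73 (looser gate), 2.50 (free RNA), 4.59 (thinned to 500 UMIs), 8.78 (not thinned) and 3.40 (at least 3 members). All of these rest on a macrophage gate. Without a gate the difference was smaller: nuclei of any class that passed the rule were 15.3% to 17.9% under chow and 19.97% and 20.7% in H and HH. In CCH and HCH they were 23.9% and 22.5%. Genes higher in receptor-carrying nuclei were 152 and 0 with the stricter gate, which leaves 3 macrophage-gated nuclei in CC. Those lower were 102, and 167 (free RNA), 47 (stricter), 154 (no limit) and 54 (not thinned).

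The members that changed sign were called neither before nor after it: Vsig4 in macrophage-gated nuclei under HFD without C (-0.29) or HH (-0.41), and after WL without CCC (0.23), without HC (0.29), with the stricter gate (0.13) and with the gate allowing for free RNA with all libraries (0.088) or without CC (0.060). In all nuclei Lyve1 under HFD did so without C (0.14), Cd209f without CC (-0.082) or H (-0.003), Mrc1 after WL without HHC (-0.25) and Folr2 after WL without CC (-0.050) or HHC (-0.51). Leaving out 1 library at a time, these values ran from -0.41 to 0.56 and from -0.77 to 0.29 for Vsig4, -0.50 to 0.14 for Lyve1, -0.082 to 0.26 for Cd209f, -0.25 to 0.55 for Mrc1 and -0.51 to 0.44 for Folr2. Of the other alternative values of single members, 518 kept direction and side of the threshold, 48 lost it and 6 gained it. The cause was not tested. Limits include the 18 macrophage-gated nuclei in CC, 1 library per group, the sequencing set and free RNA.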
